A study of Mus musculus with 8 samples.

Results

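The interleukin-6 (IL-6) family of cytokines, its receptors and the transcription factor STAT3 were followed in mouse lung. The 9 genes were taken by symbol and comprised 4 ligands (*Il6*, *Il11*, *Lif*, *Osm*), 4 receptor genes (*Il6ra*, *Il6st*, *Lifr*, *Osmr*) and *Stat3*. They are 9 of the 55416 genes counted, and all 9 passed the filter on low counts that left 18560 genes for testing.

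Cytokines of this family bind receptor complexes that contain gp130, the shared signalling chain encoded by *Il6st*. IL-6 and IL-11 first bind their own receptor chains and then gp130, whereas LIF uses the LIF receptor with gp130, and oncostatin M (OSM) uses the OSM receptor with gp130. The complexes activate Janus kinases, which phosphorylate STAT3, and STAT3 induces acute phase genes as well as *Socs3*, which brakes the signal. IL-6 is a classical cytokine of endotoxin shock and of injured lung.

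Lung RNA was sequenced from female C57BL/6J mice (C57BL/6 in the labels), 6 to 8 weeks old, in 3 groups. The 3 control mice (numbers 1, 2 and 4) received the solvent DMSO intravenously and saline intraperitoneally 30 min later. The 3 LPS mice (numbers 1, 6 and 7) received 35 mg/kg lipopolysaccharide, an endotoxin of bacterial outer membranes, and no solvent injection is described for them. The 2 dual-treated mice (numbers 2 and 5) received 10 mg/kg YW3-56, an inhibitor of protein arginine deiminases, 30 min before the same dose of LPS. The inhibitor was dissolved in DMSO, so as described the dual-treated and LPS mice also differed in solvent. Lungs were taken about 24 h after LPS. YW3-56 alone was not among the groups, so its action without LPS cannot be told apart from its action on the LPS response. Total counts per library ran from 19061949 to 20908608. Levels are counts scaled to library size by the TMM method and given as CPM, and a gene was called when its Benjamini-Hochberg adjusted p-value, over all 18560 genes, was under 0.05 in the quasi-likelihood test of edgeR.

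The tissue was checked by marker genes, whose calls are set beside the shares of all tested genes called. With LPS these shares were 32.6% up and 33.9% down. With dual treatment they were 9.13% up and 7.02% down against control, and 31.7% up and 27.4% down against LPS. All 7 markers of lung epithelium were detected in every library, and their summed level was 67639, 69002 and 74234 CPM in control, 96105, 77595 and 71610 CPM in LPS, and 42874 and 55834 CPM in dual-treated lungs. *Scgb1a1*, the secretoglobin of club cells, was the most abundant of them. With LPS *Scgb1a1*, *Sftpd* and *Foxj1* rose by 0.79, 1.02 and 0.72 on the log2 scale, whereas *Sftpc* and *Sftpb* fell by 0.93 and 0.91. Liver markers stayed at or below 1.42 CPM in sum in every library. Neutrophil markers (10 genes, led by *S100a9*) summed to 232, 129 and 135 CPM in control, 2207, 3075 and 1926 CPM in LPS, and 1801 and 2484 CPM in dual-treated lungs. The sums were high in both groups that received LPS, and *S100a8* and *S100a9* held most of them. All 10 genes rose with LPS, but 7 of 10 were called up with dual treatment against control. The other 3 were *Elane* and *Mpo*, granule genes of immature neutrophils, and *Ly6g*. Mean levels in control, LPS and dual-treated lungs were 0.508, 6.11 and 0.337 CPM for *Elane*, 0.445, 8.56 and 0.466 CPM for *Mpo*, and 0.447, 16.1 and 2.39 CPM for *Ly6g*, and all 3 were called lower with dual treatment than with LPS. Another 4 were called higher, with mean levels in LPS and dual-treated lungs of 85.7 and 241 CPM for *Retnlg*, 42.0 and 86.7 CPM for *Csf3r*, 13.5 and 37.6 CPM for *Cxcr2*, and 33.5 and 70.9 CPM for *Mmp8*. Monocyte and macrophage markers (9 genes, led by *Chil3*) summed to 883, 630 and 836 CPM in control, 963, 1058 and 550 CPM in LPS, and 1320 and 1988 CPM in dual-treated lungs, where both values lay above all others. With dual treatment 7 of the 9 were called up against control and 6 against LPS, and none was called down. *Chil3* was the largest part of this sum in every mouse, and the genes moved apart with LPS: *Ccr2*, *Csf1r* and *Cd163* fell by 3.19, 1.01 and 0.85 on the log2 scale, *Ly6c2* rose by 3.37, and the other 5 were not called. Endothelial markers (5 genes, led by *Epas1*) summed to 5003, 5277 and 5530 CPM in control, 3222, 2603 and 2799 CPM in LPS, and 5007 and 5562 CPM in dual-treated lungs. With LPS 3 of the 5 fell (*Epas1*, *Pecam1* and *Ramp2*), while *Cdh5* and *Cldn5* differed by 0.17 and -0.02 on the log2 scale and were not called. This split depends on the scale, since in TPM the group means of *Cdh5* (514 and 414 in control and LPS lungs) and *Cldn5* (1484 and 1055) were also lower with LPS. TPM (counts per exon length, scaled to a common total) shifts between groups with the most abundant genes. Mean *Scgb1a1* was 237988, 296732 and 182764 TPM in control, LPS and dual-treated lungs. Red cell and platelet markers (5 genes, led by *Hbb-bs*) summed to 1549, 3372 and 2480 CPM in control, 2833, 1725 and 1298 CPM in LPS, and 425 and 414 CPM in dual-treated lungs. *Hbb-bs*, *Hba-a1* and *Alas2* of the red cell were lower in dual-treated lungs than in both other groups, and the platelet genes differed, with mean levels in control, LPS and dual-treated lungs of 25.2, 40.1 and 54.9 CPM for *Pf4* and 20.7, 36.1 and 9.09 CPM for *Ppbp*.

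Libraries of LPS mice 6 and 7 stood apart by markers of squamous epithelium and skeletal muscle. Squamous epithelium markers (11 of 12 listed symbols matched) were led by *Krt13* in the mean of the LPS group. They summed to 810 and 2145 CPM in LPS mice 6 and 7 and to 36.6 CPM in LPS mouse 1. The sums were 51.9, 33.4 and 36.9 CPM in control and 47.1 and 60.3 CPM in dual-treated lungs. *Krt13* itself was at 286 and 887 CPM in LPS mice 6 and 7 and at most at 0.878 CPM elsewhere. In LPS mouse 1, *Krt4*, *Krt6a*, *Krt6b*, *Krtdap* and *Dsg3* were at 0. Skeletal muscle markers (11 genes) were led by *Acta1* in the mean of the LPS group. They summed to 546 and 1393 CPM in LPS mice 6 and 7 and to 21.4 CPM in LPS mouse 1. The sums were 10.9 to 21.1 CPM in control and 7.12 and 9.35 CPM in dual-treated lungs. LPS mouse 1 had both sums within or near the control range, and in CPM it held the highest *Il6*, *Lif*, *Osm* and *Stat3* of all 8 mice. In TPM *Stat3* was at 249 in LPS mouse 1 and at 253 in LPS mouse 7. With LPS mice 6 and 7 left out, log2 fold changes against control were 7.60 for *Il6*, 2.28 for *Lif*, 5.49 for *Osm* and 2.22 for *Stat3*. The lone LPS mouse is then assumed to vary like the other groups.

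Levels between genes were compared per transcript length, as TPM (counts divided by exon length and scaled to a common total), within each group. In control lungs the order of mean TPM was *Il6st* with 136 ± 12.0 (SD, n = 3), *Stat3* with 82.2 ± 6.66, *Il6ra* with 39.4 ± 3.54, *Lifr* with 37.3 ± 1.24, *Osmr* with 25.8 ± 3.37 and *Lif* with 7.95 ± 1.19. *Il11*, *Osm* and *Il6* closed the order with 2.07 ± 0.144, 1.70 ± 0.505 and 1.45 ± 0.486 TPM. Every receptor thus lay above every ligand in control lungs, and the ranges of *Il6ra* and *Lifr*, and of neighbours among the lowest ligands, overlapped. In LPS lungs *Stat3* led with 242 ± 14.7 TPM (n = 3), and *Il6* with 104 ± 74.9, *Il6st* with 95.1 ± 8.19 and *Osmr* with 93.0 ± 15.1 followed with overlapping ranges. *Osm* (36.9 ± 11.4) and *Il6ra* (31.6 ± 3.42) overlapped, as did *Lif* (16.8 ± 7.59) and *Lifr* (8.83 ± 1.53), and *Il11* was lowest at 1.03 ± 0.345 TPM. In dual-treated lungs *Stat3* (99.6 ± 14.3 TPM, n = 2) and *Il6st* (92.1 ± 3.31) overlapped at the top. They were followed by *Il6ra* (32.1 ± 2.34), *Osmr* (26.3 ± 9.06) and *Lifr* (21.7 ± 5.62), whose neighbours overlapped, then by *Lif* (7.70 ± 1.10) and *Osm* (5.68 ± 0.526), and last by *Il11* (2.49 ± 0.509) and *Il6* (2.48 ± 2.12), which overlapped.

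**Figure D1:**
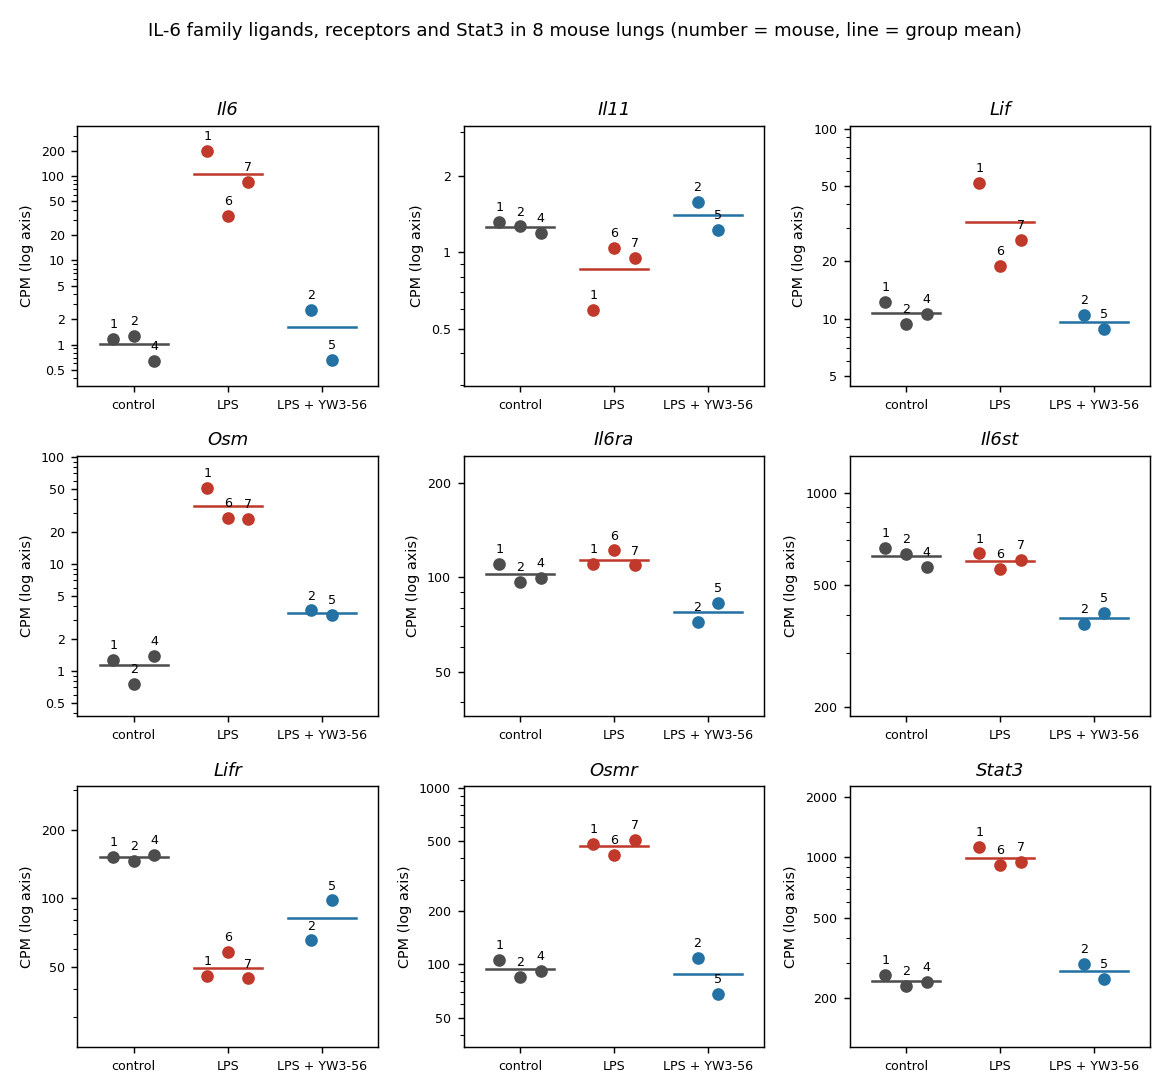
Level of each of the 9 genes in each of the 8 lungs, in CPM on a log axis, with 1 point per mouse (mouse number above it) and a line at the group mean. *Il6*, *Lif*, *Osm*, *Osmr* and *Stat3* lie higher in all 3 LPS mice than in all other mice, and *Lifr* lies lower. *Il11* also lies lower in all 3, from few counts, and was not called.

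*Il6* encodes the founding ligand of the family (ENSMUSG00000025746, chr5:30218112-30224979, plus strand, GRCm39). Its level was 1.17, 1.27 and 0.644 CPM in control mice 1, 2 and 4, from 14 to 27 counts. In LPS mice 1, 6 and 7 it was 199.8, 33.4 and 85.7 CPM. In dual-treated mice 2 and 5 it was 2.59 and 0.659 CPM, from 57 and 15 counts. Every LPS mouse was far above every other mouse, and the control and dual-treated mice overlapped, with mouse 2 above and mouse 5 within the control range. LPS raised *Il6* by 6.69 on the log2 scale (SE 0.755, 103-fold, adjusted p = 4.36e-05, edgeR, higher in 3 of 3 mice). Dual-treated lungs were lower than LPS lungs by a log2 difference of -6.04 (SE 0.855, 65.6-fold, adjusted p = 0.000284, edgeR), and their difference from control was 0.65 with a 95% interval from -1.54 to 2.84. Without dual-treated mouse 2 that difference was -0.66, so its sign rests on 1 mouse. The size of the rise rests on few mice: it was 5.86 without LPS mouse 1, and the difference from LPS lungs was -5.21 without LPS mouse 1, -7.33 without dual-treated mouse 2 and -5.36 without dual-treated mouse 5. All of these were called. LPS mice differed among themselves more for *Il6* than for any other member, by 5.97-fold from the lowest to the highest.

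*Osm* encodes oncostatin M, a ligand made mainly by myeloid cells (ENSMUSG00000058755, chr11:4186420-4191026, plus strand). It was at 1.27, 0.751 and 1.38 CPM in control mice. LPS mice had 51.0, 26.9 and 26.5 CPM, and dual-treated mice had 3.68 and 3.34 CPM. The 3 groups did not overlap. *Osm* was the member for which both dual-treated mice lay above all control mice and below all LPS mice. LPS raised it by a log2 fold change of 4.93 (SE 0.336, 30.5-fold, adjusted p = 2.46e-06, edgeR). Dual-treated lungs also exceeded control lungs, by 1.62 (SE 0.365, 3.08-fold, adjusted p = 0.0165, edgeR), and stayed under LPS lungs, by -3.31 (SE 0.352, adjusted p = 5.60e-05, edgeR). The call against control was lost without control mouse 2 (adjusted p = 0.0593, edgeR) and without dual-treated mouse 2 (adjusted p = 0.0844, edgeR). The summed neutrophil markers were high in all 5 mice that received LPS. Between dual-treated and LPS lungs 3 of the 10 were lower, as *Osm* was, 4 were higher and 3 were not called. Of the 9 monocyte and macrophage markers, 7 were called up with dual treatment against control, as *Osm* was, but 6 were called up against LPS, where *Osm* was lower. Over all tested genes 9.13% were called up against control, and 31.7% up and 27.4% down against LPS. The part of either kind of cell in the *Osm* level was not tested. In whole lung, more cells of a type and more RNA per cell cannot be told apart, nor can fewer cells and less RNA.

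*Lif* encodes leukaemia inhibitory factor (ENSMUSG00000034394, chr11:4207557-4222514, plus strand) and lies 16530 bp from *Osm*, with 0 annotated genes between them. Its level was 12.2, 9.39 and 10.6 CPM in control mice, 51.9, 18.9 and 25.8 CPM in LPS mice, and 10.4 and 8.82 CPM in dual-treated mice. All LPS mice lay above all others, while dual-treated mouse 2 lay within the control range and mouse 5 just below it. *Lif* rose with LPS by 1.59 on the log2 scale (SE 0.324, adjusted p = 0.00185, edgeR). It was lower in dual-treated than in LPS lungs by -1.74 (SE 0.376, adjusted p = 0.00324, edgeR), and its difference between dual-treated and control lungs was -0.16, with a 95% interval from -0.97 to 0.66.

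*Il11* encodes interleukin-11 (ENSMUSG00000004371, chr7:4775372-4785858, minus strand) and was barely detected, with 10 to 35 counts per library. It was at 1.32, 1.27 and 1.20 CPM in control mice, 0.593, 1.04 and 0.949 CPM in LPS mice, and 1.59 and 1.23 CPM in dual-treated mice. The LPS values lay below all others, and control and dual-treated values overlapped. No comparison was called at this depth. The log2 differences were -0.55 for LPS against control (95% interval from -1.33 to 0.24), 0.16 for dual treatment against control (from -0.67 to 0.99) and 0.70 for dual treatment against LPS (from -0.15 to 1.56).

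Among the receptors, *Il6ra* encodes the chain that binds IL-6 (ENSMUSG00000027947, chr3:89771366-89820719, minus strand). It was at 110.5, 96.8 and 99.6 CPM in control mice, 110.3, 122 and 109 CPM in LPS mice, and 72.0 and 82.7 CPM in dual-treated mice. In CPM, control and LPS mice overlapped and both dual-treated mice lay below all others. In TPM the dual-treated mice (30.4 and 33.7) lay within the range of the LPS mice (27.7 to 34.1), and all LPS mice lay below all control mice (37.0 to 43.5), so that both patterns depend on the scale. The log2 difference between LPS and control was 0.15, with a 95% interval from -0.07 to 0.37, and turned to -0.13 when libraries were scaled by their totals alone. Dual-treated lungs were lower than LPS lungs by -0.56 (SE 0.111, adjusted p = 0.00214, edgeR) and lower than control by -0.40 (SE 0.111, adjusted p = 0.0371, edgeR). With totals alone these differences were -0.23 and -0.36, and their adjusted p-values 0.120 and 0.0704 (edgeR). The call against control was also lost without any 1 of the control mice (adjusted p from 0.0734 to 0.118, edgeR) and without dual-treated mouse 2 (adjusted p = 0.211, edgeR).

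*Il6st* encodes gp130 (ENSMUSG00000021756, chr13:112600604-112646620, plus strand). Its level was 658, 629.5 and 574 CPM in control mice, 633, 564 and 603 CPM in LPS mice, and 373 and 406 CPM in dual-treated mice. In CPM, control and LPS mice overlapped and both dual-treated mice were below them. On this scale the shared receptor chain had a lower level in the dual-treated group, by a log2 difference of -0.67 against control (SE 0.121, adjusted p = 0.00611, edgeR) and -0.62 against LPS (SE 0.121, adjusted p = 0.00177, edgeR). Both calls held with each mouse left out in turn. The difference from LPS depended on the scale, and with totals alone it was -0.30 (adjusted p = 0.0434, edgeR). In TPM the dual-treated mice (89.8 and 94.4) overlapped the LPS mice (89.9 to 104.5), and both groups lay below all control mice (124 to 148). Red cell markers were low in the same dual-treated mice, and their part in the lower *Il6ra* and *Il6st* was not tested. Between LPS and control the difference was -0.05, with a 95% interval from -0.29 to 0.19; scaling by totals alone gave -0.34 (adjusted p = 0.0134, edgeR).

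*Lifr* encodes the LIF receptor (ENSMUSG00000054263, chr15:7120095-7226970, plus strand). It was at 152, 146 and 155 CPM in control mice, 45.7, 58.0 and 44.5 CPM in LPS mice, and 65.3 and 97.9 CPM in dual-treated mice. The groups did not overlap, and the dual-treated values lay between the others. *Lifr* fell with LPS, by a log2 change of -1.61 (SE 0.159, 3.06-fold, adjusted p = 1.91e-05, edgeR). In dual-treated lungs it was lower than in control by -0.89 (SE 0.177, adjusted p = 0.00981, edgeR) and higher than in LPS lungs by 0.72 (SE 0.173, adjusted p = 0.00553, edgeR). The first of these calls was lost without dual-treated mouse 2 (adjusted p = 0.0618, edgeR), and the second without mouse 5 (0.38, adjusted p = 0.0934, edgeR). The endothelial markers *Epas1*, *Pecam1* and *Ramp2* were likewise low in the 3 LPS mice. In dual-treated lungs the summed endothelial markers (5007 and 5562 CPM) lay within or above the control range (5003 to 5530 CPM), and *Lifr* lay below all control mice. *Cdh5* and *Cldn5* were lower with LPS in mean TPM but were not called in CPM. The part of endothelial cells in the level of *Lifr* was not tested.

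*Osmr* encodes the OSM receptor (ENSMUSG00000022146, chr15:6843053-6904450, minus strand) and lies 215644 bp from *Lifr* on chromosome 15, with 0 protein-coding genes between them. The neighbouring receptor genes moved in opposite directions with LPS. *Osmr* was at 105, 84.4 and 92.0 CPM in control mice, 478, 414 and 508 CPM in LPS mice, and 108 and 68.2 CPM in dual-treated mice. All LPS mice lay above all others, and the dual-treated mice lay on either side of the control range. It rose with LPS by 2.31 (SE 0.179, 4.97-fold, adjusted p = 4.77e-06, edgeR) and was lower in dual-treated than in LPS lungs by -2.40 (SE 0.210, adjusted p = 1.97e-05, edgeR). Its difference between dual-treated and control lungs was -0.09, with a 95% interval from -0.52 to 0.34.

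*Stat3* encodes the transcription factor that these receptors activate (ENSMUSG00000004040, chr11:100775924-100830450, minus strand). Its level was 260.0, 229 and 241 CPM in control mice, 1128, 919 and 948 CPM in LPS mice, and 296 and 250 CPM in dual-treated mice. The LPS mice stood clear of the rest, and dual-treated mouse 5 lay within and mouse 2 above the control range. *Stat3* rose with LPS by 2.04 (SE 0.128, 4.10-fold, adjusted p = 1.71e-06, edgeR) and was lower in dual-treated than in LPS lungs by -1.87 (SE 0.148, 3.66-fold, adjusted p = 1.19e-05, edgeR). Against control, dual-treated lungs differed by 0.17, with a 95% interval from -0.14 to 0.47. *Stat3* shares 142 bp of exon with *Stat5a* on the opposite strand. The strand setting of the counting is not given in the sources used here, so reads of that stretch cannot be told apart. Transcript levels do not measure the phosphorylated STAT3 protein.

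Over the members, LPS raised 5 of 9 (*Il6*, *Lif*, *Osm*, *Osmr* and *Stat3*), where 32.6% of all tested genes were called up, and lowered 1 of 9 (*Lifr*; with totals alone *Il6st* too), where 33.9% were called down. The median log2 fold change of the members was 1.59, and that of all tested genes was -0.01. In dual-treated against control lungs 1 member was higher (*Osm*; 9.13% of all genes were called up) and 3 were lower (*Il6ra*, *Il6st* and *Lifr*; 7.02% were called down), with a median of -0.09 against 0.004 for all genes. These 1695 genes up and 1302 down became 973 to 1088 up and 580 to 733 down with 1 control mouse left out. Then 0 to 1 members were higher and 2 were lower. In dual-treated against LPS lungs 1 member was higher (*Lifr*; 31.7% of all genes) and 7 were lower (all but *Lifr* and *Il11*; 27.4% of all genes), with a median of -1.74 against 0.06. The 3 comparisons share mice and are not independent of one another. Scaling by library totals alone shifted the median of all genes to -0.29, 0.04 and 0.38 in these comparisons, so that small differences depend on the scaling. It also moved the balance of calls over all genes, from 6046 up and 6300 down to 4336 and 7832 for LPS against control, and from 5875 and 5085 to 7889 and 3225 for dual treatment against LPS. An exact permutation test cannot give a p-value below 0.1 with 3 mice against 3 or 3 against 2, and none was used.

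Both dual-treated mice were also set against each other. Mouse 2 was higher than mouse 5 for 6 of the 9 members (the 4 ligands, *Osmr* and *Stat3*) and lower for *Il6ra*, *Il6st* and *Lifr*. Of the 20 listed STAT3 target genes it was higher for 18, or 90%, where over all tested genes the share was 48.0%. Within the group, *Il6* differed 3.93-fold between these mice, and *Il6st* differed 1.09-fold.

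The other ligands of the family were 8 genes, of which *Cntf*, *Ctf2* and *Il31* had too few counts to be tested. Of the 5 tested, LPS raised *Ebi3*, the subunit shared by IL-27 and IL-35, and lowered *Ctf1*, which encodes cardiotrophin-1 (median -0.23). *Ebi3* was at 1.57, 1.5 and 1.10 CPM in control, 14.2, 10.9 and 8.37 CPM in LPS, and 5.76 and 6.94 CPM in dual-treated lungs, and the groups did not overlap. Its log2 fold change against control was 3.00 with LPS (SE 0.261, adjusted p = 8.85e-06, edgeR) and 2.19 with dual treatment (SE 0.276, adjusted p = 0.000964, edgeR). *Ctf1* fell with LPS by -1.27 (adjusted p = 0.00146, edgeR) and dual-treated lungs exceeded LPS lungs by 1.11 (adjusted p = 0.00628, edgeR). In dual-treated lungs 1 of the 5 was called up and 0 down against control, and 1 up and 1 down against LPS. The shares up and down over all tested genes were 9.13% and 7.02% against control, and 31.7% and 27.4% against LPS. With LPS against control they were 32.6% and 33.9%.

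All 3 tested of the 4 other receptors fell with LPS (median -1.12): *Cntfr*, the ciliary neurotrophic factor receptor, by -1.12, *Il11ra1*, the IL-11 receptor, by -0.69, and *Il27ra*, which pairs with gp130 for IL-27, by -1.33. *Il31ra* was too low to be tested. Adjusted p-values were 0.0113, 0.000810 and 0.0231 (edgeR), and each of these genes had all LPS mice below all control mice. The share of all tested genes separated in this way was not counted. Against control, 0 of the 3 were called in dual-treated lungs by edgeR, and against LPS *Cntfr* and *Il11ra1* were higher, by 1.07 and 0.42. *Il11ra1* has near-identical copies in the mouse genome, so its level is uncertain. Of all tested genes, 33.9% were called down with LPS and 31.7% higher in dual-treated than LPS lungs.

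The kinases, STATs and adaptors downstream of gp130 numbered 10, and LPS raised 6 (*Jak1*, *Jak2*, *Stat5a*, *Ptpn11*, *Grb2* and *Shc1*) and lowered 2 (*Tyk2* and *Stat5b*), with a median of 0.53. Of all tested genes, 32.6% were called up and 33.9% down with LPS, and 31.7% higher and 27.4% lower in dual-treated than LPS lungs. The direction of *Ptpn11* depends on the scale: it was called up by 0.31 in CPM, but its mean TPM was 100.2 in control and 89.7 in LPS lungs. *Jak2*, a Janus kinase, rose by 1.57 (SE 0.125, adjusted p = 5.54e-06, edgeR) and *Jak1* by 0.75 (SE 0.109, adjusted p = 0.000218, edgeR). The STAT5 genes, which are close paralogs, moved apart: *Stat5a* rose by 1.44 and *Stat5b* fell by 1.29. *Stat5a* shares 142 bp of exon with *Stat3*, and reads of that stretch cannot be told apart without the strand setting. Mean levels in LPS lungs were 998 CPM for *Stat3* and 47.8 CPM for *Stat5a*. Against LPS, 3 of the 10 were higher in dual-treated lungs, among them *Tyk2* (0.87, SE 0.125, adjusted p = 0.000307, edgeR) and *Stat5b* (1.02, SE 0.0908, adjusted p = 2.19e-05, edgeR), and the other 7 were lower. For 3 of those 7, mean TPM went the other way, though TPM between groups also shifts with the abundant *Scgb1a1*. In LPS and dual-treated lungs mean TPM was 89.7 and 95.6 for *Ptpn11*, 29.4 and 32.2 for *Gab1*, and 68.7 and 73.3 for *Shc1*.

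Of 7 brakes and sheddases, LPS raised 4 and lowered 2 (median 0.82), where 32.6% of all tested genes were called up and 33.9% down. *Socs1* and *Socs3* encode inhibitors of Janus kinase signalling. *Socs1* was at 4.75, 5.54 and 5.52 CPM in control, 150.2, 81.5 and 94.6 CPM in LPS, and 5.99 and 4.92 CPM in dual-treated lungs. *Socs3* was at 76.3, 101.5 and 105 CPM in control, 980.4, 729 and 767 CPM in LPS, and 187 and 170.3 CPM in dual-treated lungs. For *Socs1* dual-treated mouse 5 lay within the control range and mouse 2 just above it, and for *Socs3* both lay above all control mice. With LPS *Socs1* rose by 4.37 (SE 0.240, adjusted p = 9.57e-07, edgeR) and *Socs3* by 3.13 (SE 0.170, adjusted p = 8.97e-07, edgeR). *Socs3* was the 1 gene of the 7 called in dual-treated against control lungs (0.92, SE 0.173, adjusted p = 0.00745, edgeR). *Ptpn2*, a phosphatase of STAT proteins, rose with LPS by 2.36, *Erbin* rose by 0.82, and *Pias3*, an inhibitor of STAT3, fell by 1.59. Of the proteases that shed the IL-6 receptor, *Adam10* fell by 0.60, and *Adam17* differed by 0.01 (95% interval from -0.25 to 0.27). Against LPS, *Pias3* and *Adam10* were higher in dual-treated lungs and *Socs1*, *Socs3*, *Ptpn2* and *Erbin* were lower. With dual treatment, 9.13% of all tested genes were called up and 7.02% down against control, and 31.7% up and 27.4% down against LPS.

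All 20 of the listed STAT3 target genes rose with LPS (median 3.10), 11 were called up with dual treatment against control (median 0.85), and 19 were lower in dual-treated than in LPS lungs (median -2.11). Over all tested genes the shares called in these directions were 32.6%, 9.13% and 27.4%. Other factors also act on these genes, so the list does not measure STAT3 alone. *Lcn2*, which encodes the iron-scavenging protein lipocalin-2, was at 149, 106 and 154 CPM in control, 14051, 14500.3 and 10156 CPM in LPS, and 4471 and 1199 CPM in dual-treated lungs. The acute phase gene *Saa3* was at 7.34, 5.26 and 19.6 CPM in control, 6561, 9515 and 4355 CPM in LPS, and 1762 and 1245 CPM in dual-treated lungs. For both genes the dual-treated mice lay between the other groups. Log2 fold changes against control for *Lcn2* were 6.57 with LPS (SE 0.504, adjusted p = 4.56e-06, edgeR) and 4.38 with dual treatment (SE 0.472, adjusted p = 0.000436, edgeR). *Saa2*, whose control libraries held 1 count or none, was at least 411-fold higher with LPS and at least 51.9-fold higher with dual treatment, taking 3 counts per library as the floor. It is a near-identical copy of *Saa1*, so reads may be split between them and both levels are uncertain. With *Saa2* at these bounds the list medians are the same.

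Single targets differed in how far their dual-treated levels lay from control. *Timp1*, an inhibitor of metalloproteinases, was 5.24 above control with LPS and 2.95 above it with dual treatment on the log2 scale (adjusted p = 1.33e-06 and 0.000321, edgeR). *Pim1*, a kinase gene, was 3.00 above control with LPS (adjusted p = 2.12e-06, edgeR), and its difference with dual treatment was 0.21 (95% interval from -0.25 to 0.68). *Hif1a*, the hypoxia-inducible factor, had 3.08 and 0.69 (adjusted p = 2.78e-06 and 0.0657, edgeR). *Fgg*, a fibrinogen chain, was at 0.832, 0.563 and 0.598 CPM in control, 10.9, 9.59 and 15.2 CPM in LPS, and 0.318 and 0.0878 CPM in dual-treated lungs, the last of these from very few counts. The dual-treated mice lay below all control mice for *Fgg*, with a log2 difference of -1.69 that was not called (adjusted p = 0.0531, edgeR). *Il10*, an anti-inflammatory cytokine, was the 1 target not called between dual-treated and LPS lungs. It was at 0.196, 0.235 and 0.644 CPM in control, 5.87, 3.98 and 2.74 CPM in LPS, and 6.99 and 1.71 CPM in dual-treated lungs, so that the groups given LPS overlapped (difference 0.05, 95% interval from -1.26 to 1.37).

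**Figure D2:**
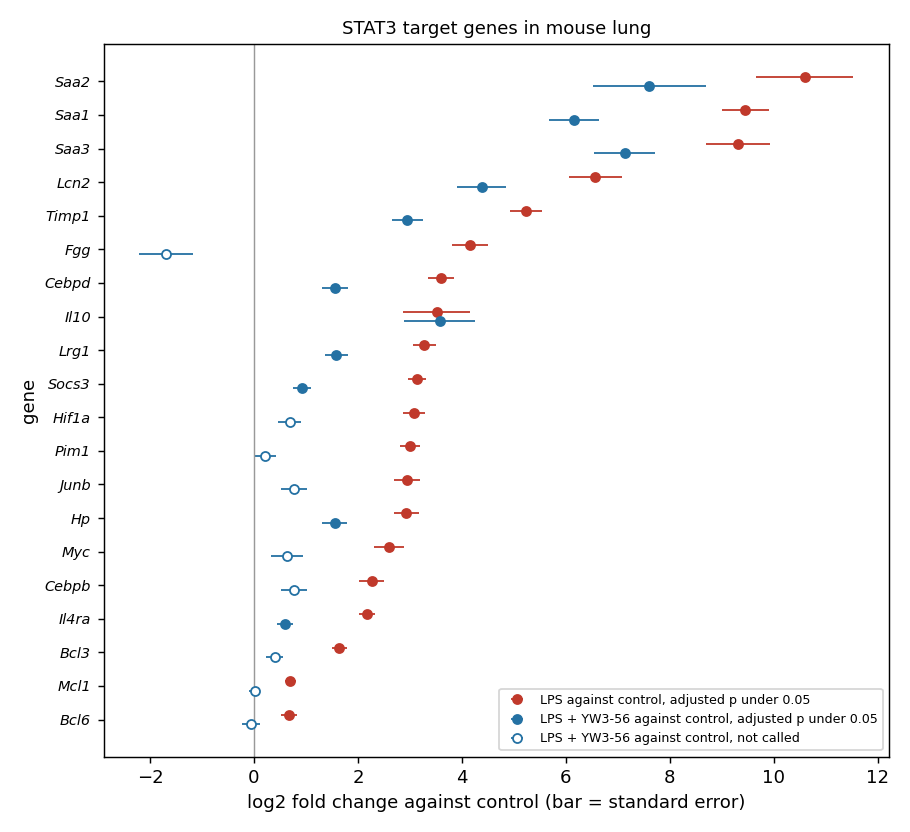
Log2 fold change against control of the 20 STAT3 target genes in LPS and in dual-treated lungs, with bars for the standard error and open points for genes not called. All 20 LPS points lie above 0, 11 dual-treated points are called up, and the fitted values of *Saa2*, whose control libraries held 1 count or none, are not bounds.

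For each member the 3 protein-coding genes with the most similar profile of log2 CPM over the 8 libraries were found among 13869 genes. The libraries fall into 3 groups, so high values of Pearson's r are common and are given as a description. They were *C9orf72* (0.997), *Zbtb17* (0.994) and *Slc23a2* (0.993) for *Il6*, *Otub1* (0.999), *Ube2f* (0.998) and *Ccl5* (0.997) for *Osm*, and *Epha2* (0.991), *Rabgef1* (0.985) and *Mov10* (0.985) for *Lif*. For *Il11*, with its few counts, they were *Tmem106b* (0.986), *Cbr4* (0.975) and *Mgst2* (0.966). Among the receptors they were *Ap1ar* (0.972), *Vsig10* (0.971) and *Dlg1* (0.97) for *Il6ra*, and *Zfp36l1* (0.990), *Nedd4l* (0.984) and *Tead1* (0.976) for *Il6st*. They were *Ankrd63* (0.995), *Txndc16* (0.995) and *Lurap1l* (0.992) for *Lifr*, and *Mlxip* (0.999), *Ddx3x* (0.997) and *Safb* (0.997) for *Osmr*. For *Stat3* they were *Dnajc5*, *Mdm2* and *Daxx* (each 0.998).

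Promoters were taken from a RefSeq table of GRCm38.p6 and located in GRCm39 by exact match, and 8 of the 9 members had an entry (not *Osm*), with 2 each for *Il11* and *Lifr*. The 250 bases before each start were searched on both strands for TTCNNNGAA (the STAT motif), GGANTTTCC (NF-kB), TGANTCA (AP-1) and TTGCNNAA (C/EBP), where N is any base. Of the 32851 promoters in the table, 7.02% held the STAT letters, 1.07% the NF-kB letters, 6.75% the AP-1 letters and 9.56% the C/EBP letters. The promoter of *Il6*, the member with the largest rise, held the NF-kB, AP-1 and C/EBP letters, first base at 43, 249 and 128 bases before the start. *Lif* held the AP-1 letters at 228 bases before its start, and 1 of the *Il11* promoters held them at 98. None of these letters was found in the promoters of *Il6ra*, *Il6st*, *Lifr*, *Osmr* and *Stat3*, and the STAT letters were in none of the members' promoters. A match describes the letters and does not show that a factor binds. Both ligand promoters with a match whose genes rose with LPS are printed 5′ to 3′, with the matches in capitals: *Il6* at chr5:30217862-30218111 and *Lif* at chr11:4207318-4207567, both plus strand, GRCm39.
Il6 promoter: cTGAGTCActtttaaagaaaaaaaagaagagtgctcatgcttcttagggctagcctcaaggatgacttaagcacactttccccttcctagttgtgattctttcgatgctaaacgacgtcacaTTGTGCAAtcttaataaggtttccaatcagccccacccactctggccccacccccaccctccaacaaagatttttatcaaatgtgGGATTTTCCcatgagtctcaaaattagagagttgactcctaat
Lif promoter: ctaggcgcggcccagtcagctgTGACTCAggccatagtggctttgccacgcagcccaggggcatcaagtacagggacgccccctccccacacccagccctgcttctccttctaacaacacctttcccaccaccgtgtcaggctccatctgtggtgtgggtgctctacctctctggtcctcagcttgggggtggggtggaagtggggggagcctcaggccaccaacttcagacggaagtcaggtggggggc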

How the data were processed

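Lung RNA of 8 mice was sequenced as paired reads on an Illumina NovaSeq. The authors checked reads with FastQC 0.11.9, trimmed them with Trim Galore, aligned them to GRCm39 with HISAT2 2.2.1, counted them per gene with featureCounts 2.0.1 and deposited raw counts per mouse. The annotation release, strand setting and treatment of reads with several alignments are not given in the sources used here, so values of paralogs and overlapping genes are uncertain. The dual-treated group has 2 mice in the labels and in a figure legend of the study, although its methods text speaks of 3 in each group, and the labels were followed.

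The tests were run with edgeR 4.0.16 under R 4.3.3. Libraries were scaled by TMM and low genes removed by filterByExpr with the groups given. A quasi-likelihood model with the group as its 1 factor was fitted to the 8 libraries together, leaving 5 residual degrees of freedom. P-values were adjusted by Benjamini-Hochberg over 18560 genes. The standard error is the size of the log2 fold change divided by the root of F, and 95% intervals use the t distribution of the fit. The criterion of the authors was a change above 2-fold with a DESeq2 p-value under 0.05, read here as unadjusted. That criterion and DESeq2 1.42.0 were alternatives here. The others were scaling by library totals or RLE factors, no filter on low counts or at least 10 counts in every library, only the 2 groups compared, each mouse left out in turn, and LPS mice 6 and 7 left out. Counts of the gene lists under these alternatives were added after seeing the data. TPM used union exon lengths. A gene with at most 3 counts in every library of a group was taken to be at the floor. Such a floor covers counting error only, whereas the 95% intervals include the spread between mice estimated in the fit. Symbols and coordinates come from GENCODE M39, which matched 54749 of 55416 identifiers; the 667 others held 0.0533% of counts.

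The 9 members, the gene and marker lists and the tests were chosen with earlier results of these data known. The genes that could be named are the members, the genes of the lists (1 of which is not reported here) and, for each member, the 3 protein-coding genes with the highest Pearson r of log2 CPM (prior count 2) among tested genes with a mean of at least 1 CPM, predicted genes left out. Other marker lists were lymphocytes (6 genes) and fibroblasts and smooth muscle (6 genes, summed level of 826 to 1086 CPM). Lymphocyte markers summed to 19.0, 21.6 and 20.0 CPM in control and 12.2, 10.9 and 7.76 CPM in LPS lungs. In dual-treated lungs they summed to 23.2 and 15.5 CPM. With LPS 3 lymphocyte markers were called down and 0 up, and 2 fibroblast and smooth muscle markers were called up and 1 down. Over all tested genes 32.6% were called up and 33.9% down with LPS. The procedure was tested on simulated counts of 18560 genes.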

Additional observations from a re-analysis of the deposited data

How the results depend on the processing

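No paired analysis was possible because the groups compared share fewer than 2 mouse numbers. With LPS, 5 members were called up under every alternative. Between dual treatment and LPS, 7 were called down under every alternative except scaling by library totals (6) and a required fold over 2 (5). Of 405 member differences over the alternatives that set no fold, 387 kept their direction and their side of the threshold, 10 lost and 1 gained a call, and 7 turned sign. Scaling by library totals alone gave 2 members down with LPS, turned *Il6ra* to -0.13 for LPS against control, and called 7889 genes higher and 3225 lower in dual-treated than LPS lungs; the cause was not tested. Requiring a fold over 2 gave 3401 up and 4049 down with LPS at the unadjusted criterion and 3318 and 3961 at the adjusted one. The adjusted criterion calls fewer genes by construction, whereas the unadjusted one also changed the p-value used. Dual treatment against control then had 1307 genes up and 637 down (unadjusted), and 974 up and 353 down (adjusted), with 0 members down by either. Against LPS it had 3826 up and 2728 down, or 3666 and 2598, with 0 members up by either.

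With each mouse left out in turn, dual treatment against control had 790 to 1946 genes up and 430 to 1655 down, 0 to 1 members up and 1 to 3 down, and dual treatment against LPS had 0 to 1 members up. The lowest gene counts came without dual-treated mouse 2, which leaves 1 mouse in that group, assumed to vary like the others. Signs turned only for differences that were not called. For dual treatment against control, *Osmr* ran from -0.49 to 0.18 (6.66e-05 without control mouse 1), *Il6* from -0.66 to 1.30 and *Il11* from -0.066 to 0.30, the lowest *Il6* and *Il11* being those without dual-treated mouse 2. For LPS against control, *Il6st* ran from -0.10 to 0.0017 (without LPS mouse 6) and was 0.035 without LPS mice 6 and 7. The cause was not tested. *Il11* rests on 10 to 35 counts per library, and its intervals are wide.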
